A study of Mus musculus with 9 samples.

Results

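The extracellular matrix of the dermis is described here through 10 genes, chosen for their function as tenascins, fibronectin, elastic fibre genes, proteoglycans and matricellular proteins (Tnc, Tnxb, Fn1, Postn, Dcn, Lum, Eln, Fbn1, Fbln1 and Sparc). Of these, 9 were measured by 13 probe sets that name 1 gene alone, out of 12393 genes and 20380 such probe sets on the array. No probe set was annotated to Fbn1, so no value is given for it. Tnc and Tnxb were picked because opposite changes had already been noticed in these data, so their scores and differences are given as a description with no test. The other 7 measured genes were picked by function, but with earlier results of these data known.

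Whole skin was taken from mice 30 days after birth, and each of 9 Affymetrix arrays received 1 pool of RNA. The pools came from the transgenic lines L60, L84 and LA (n = 2 each) and from control mice, LC (n = 3), all on a mixed C57BL, DBA and FVB background. The series title concerns a constitutively active Akt, a kinase downstream of growth factor receptors, and impaired signalling by bone morphogenetic proteins. The promoter of the transgene, how the 3 lines differ, the alleles of LC and the number of mice in a pool are not given in the sources used here, so p-values measure only the spread between these pools. The study asked how gene expression differed among the 4 genotypes.

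The dermal matrix is a scaffold of collagen fibrils and elastic fibres that fibroblasts secrete. Elastin forms the core of an elastic fibre and fibrillin microfibrils its mantle, small leucine-rich proteoglycans regulate how collagen molecules assemble into fibrils, and matricellular proteins modulate the adhesion of cells to the scaffold. Tenascin-C, encoded by Tnc, is an anti-adhesive glycoprotein known from developing and wounded tissue, while tenascin-X, encoded by Tnxb, binds collagen fibrils and is known for the overly elastic skin of humans and mice that lack it.

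The promoters of 3 genes are shown because Tnc and Tnxb had opposite patterns and Postn had the highest score difference in L84 and the smallest adjusted p among the tested members. The sequences are from RefSeq on GRCm38.p6, which held 9 windows for 6 of the 10 members, from 250 bases before to 50 after an annotated start, written in the direction of transcription. Capitals mark the letters of 5 motifs searched on both strands: TATAAA for the TATA box, GGGCGG for the GC box, TGANTCA for AP-1, TGTTTAC for FOXO and GTCTAGAC for a SMAD repeat.
Tnc, chr4:64046966-64047265, minus strand: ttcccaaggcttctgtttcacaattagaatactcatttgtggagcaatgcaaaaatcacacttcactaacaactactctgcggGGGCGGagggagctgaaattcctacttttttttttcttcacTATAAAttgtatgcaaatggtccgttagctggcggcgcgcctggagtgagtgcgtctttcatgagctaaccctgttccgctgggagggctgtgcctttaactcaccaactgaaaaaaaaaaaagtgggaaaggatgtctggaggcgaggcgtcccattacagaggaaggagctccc
Tnxb, chr17:34670285-34670584, plus strand: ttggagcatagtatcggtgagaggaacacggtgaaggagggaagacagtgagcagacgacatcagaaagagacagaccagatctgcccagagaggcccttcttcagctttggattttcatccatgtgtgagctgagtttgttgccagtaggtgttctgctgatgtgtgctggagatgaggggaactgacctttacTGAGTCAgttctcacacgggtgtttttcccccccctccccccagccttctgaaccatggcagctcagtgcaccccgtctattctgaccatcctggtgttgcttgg
Postn, chr3:54360857-54361156, plus strand: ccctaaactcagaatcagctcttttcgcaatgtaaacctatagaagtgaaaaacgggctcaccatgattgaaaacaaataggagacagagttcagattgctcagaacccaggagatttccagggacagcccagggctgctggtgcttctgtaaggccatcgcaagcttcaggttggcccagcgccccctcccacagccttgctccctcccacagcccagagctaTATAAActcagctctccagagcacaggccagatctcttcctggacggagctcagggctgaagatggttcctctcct
The Tnc window shown held GGGCGG at position -167 and TATAAA at position -126 relative to the start. The Tnxb window held TGAGTCA at position -55, a match to TGANTCA on both strands, and the Postn window shown held TATAAA at position -26. The Tnxb and Postn windows shown lie inside gene records that begin at 34660453 and 54359267. Positions in them count from an annotated start within the gene, not from its outer end. Among 32851 promoter windows of this length, 13.6% held TATAAA, 35.7% GGGCGG, 7.81% TGANTCA, 3.65% TGTTTAC and 0.213% GTCTAGAC. RefSeq gives Tnc and Postn 2 starts each, and the window with TATAAA nearer the start is shown, a choice made after the search. In the window of the other Tnc start TATAAA lay at position -205 and GGGCGG at position -246, and the window of the other Postn start held none of the 5 motifs. The search took exact letters only. It did not mark the similar run tatataag, which lies nearer the start than TATAAA in that other Tnc window. The last pair of motifs had no match in the 3 windows shown. These matches describe the letters only.

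The deposited values are scores, which were standardised for every probe set to mean 0 and SD 1 over the 9 arrays. A score of 1 is 1 SD above that probe set's own mean, a difference is counted in the same SDs, and neither gives a level nor a fold. The scores therefore cannot show which gene was more abundant, nor whether the defining markers of skin were present. In pooled whole tissue, fewer cells of a type and less RNA per cell cannot be told apart. Scores of 18S ribosomal RNA were higher on L60 1, L84 1 and LC 1 (2.09, 0.339 and 1.13) than on the other 6 arrays (-0.642 to -0.528), and the spread of all scores was widest on LA 2 and L84 1 (SD 1.31 and 1.2, against 0.764 to 0.907 on the others). Differences within the arrays high in 18S and within the others are given for each member below.

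Tnc, on chromosome 4 (63959785 to 64047015 of GRCm38.p6), was low in L84 and LA and not in L60. It scored 1.11 and 0.535 in L60, -0.936 and -1.2 in L84, and -1.26 and -0.721 in LA, against 0.946, 0.731 and 0.791 in LC. The L84 and LA arrays all lay below every L60 and LC array, and the L60 arrays lay on either side of LC. Relative to LC it differed by -1.89 ± 0.249 (SE) in L84 and -1.81 ± 0.249 in LA, and by 0.00159 ± 0.249 in L60. Against L60 the difference was -1.89 ± 0.273 in L84 and -1.82 ± 0.273 in LA. Among the arrays high in 18S, L60 1 and L84 1 differed from LC 1 by 0.167 and -1.88, and among the others L60 2, L84 2 and the mean of LA differed from the mean of LC 2 and LC 3 by -0.225, -1.96 and -1.75.

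Tnxb, on chromosome 17 (34660453 to 34719815), ran the other way and in every line. It scored -0.377 and 0.24 in L60, -0.188 and 0.191 in L84, and 1.73 and 1.34 in LA, against -0.849, -1.18 and -0.913 in LC. All 6 line arrays lay above all LC arrays, the L60 and L84 arrays overlapped, and both LA arrays lay above the other 7. Relative to LC, Tnxb differed by 0.911 ± 0.257 in L60, 0.981 ± 0.257 in L84 and 2.52 ± 0.257 in LA. LA stood 1.6 ± 0.282 above L60 and 1.53 ± 0.282 above L84. The order of the groups for Tnxb was thus LA, then L84 and L60 without a gap beyond their spread, then LC, whereas for Tnc it was L60 and LC, which overlapped, then LA and L84, which also overlapped. L60 therefore overlapped LC for Tnc and lay above it for Tnxb. The Tnxb difference in L60 depended on the array, at 0.603 without L60 2 and 1.22 without L60 1. Among the arrays high in 18S, L60 1 and L84 1 exceeded LC 1 by 0.473 and 0.662 for Tnxb, and among the others L60 2, L84 2 and the mean of LA exceeded the mean of LC 2 and LC 3 by 1.28, 1.24 and 2.58.

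**Figure D1:**
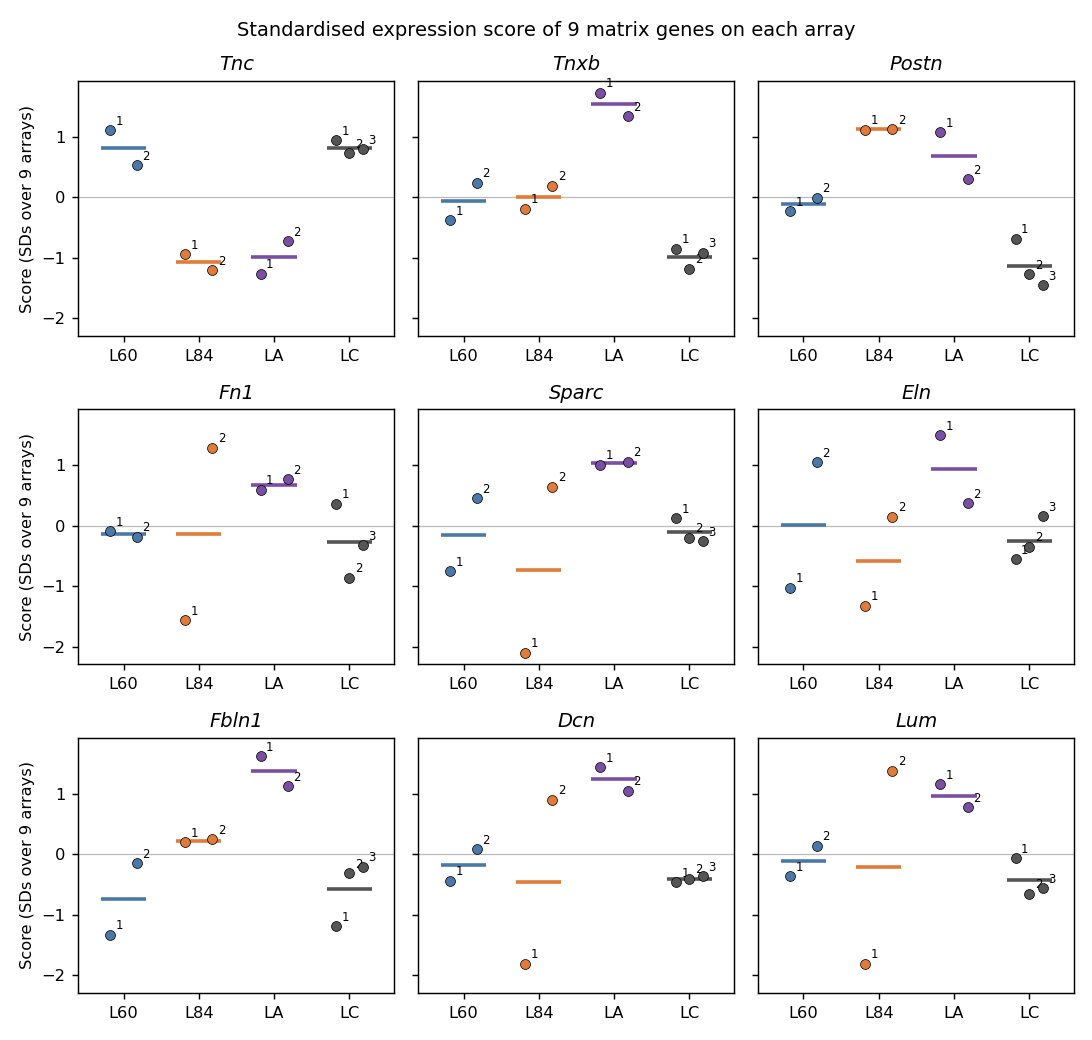
Score of each measured gene on each array, in SDs over the 9 arrays, with the array's replicate number beside its point and the group mean as a bar, for L60, L84, LA and LC. Tnc lies at -0.721 or below on all L84 and LA arrays, Tnxb at 1.34 or above on both LA arrays, and Fn1, Sparc, Eln, Dcn and Lum are lowest on L84 1.

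Hair shaft keratins, markers of the growing hair fibre, were also low in L84 and LA. Their mean score over 9 genes was 0.142 and 0.347 in L60, -1.04 and -0.951 in L84, and -0.987 and -0.909 in LA, against 1.18, 1.09 and 1.12 in LC. All 9 fell in L84 and all 9 in LA by limma's unmoderated test with Benjamini-Hochberg adjustment, with median differences of -2.13 and -2.07, where 0.403% and 0.984% of all genes were called lower. In L60 0 of 9 passed, the median difference was -1.02 and all 9 lay below the LC arrays, as did 10.8% of all genes. Tnc in L60 did not lie below LC. The part of hair shaft cells in the Tnc scores was not tested.

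The genes whose pattern lay nearest to Tnc were named by the root mean square difference of their rescaled scores over the 9 arrays, a measure that is 0 for identical patterns. They were Cacna2d3, a calcium channel subunit (0.171), Fbp1, an enzyme of gluconeogenesis (0.175), Krt25, a keratin of the inner root sheath (0.217), S100a3, an S100 protein known from hair cuticle cells (0.23), and Noct (0.239). Nearest to Tnxb were Naaa, an acid amidase of lysosomes (0.162), Rnase4, a secreted ribonuclease (0.166), Elovl2, which elongates polyunsaturated fatty acids (0.19), Akap12, a scaffold for protein kinase A (0.212), and Pcolce2, an enhancer of procollagen processing (0.227). Of the other measured members, Fbln1 lay nearest to Tnxb (0.551) and Postn farthest from Tnc (1.82). All these patterns share the same 9 arrays.

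Periostin, encoded by Postn, is a matricellular protein that binds collagen and integrins. It scored -0.227 and -0.00436 in L60, 1.12 and 1.13 in L84, and 1.08 and 0.299 in LA, against -0.682, -1.27 and -1.45 in LC. All 6 line arrays lay above all LC arrays, as for 3.7% of all genes, and L84 lay above LA and LA above L60. The difference from LC was 1.02 ± 0.33 in L60 (limma's unmoderated test, adjusted p = 0.981), 2.25 ± 0.33 in L84 (adjusted p = 0.0967) and 1.82 ± 0.33 in LA (adjusted p = 0.0723). The mean of the 3 lines differed from LC by 1.7 ± 0.256 (adjusted p = 0.0868), and L84 from L60 by 1.24 ± 0.362 (adjusted p = 0.476). No Postn comparison passed the threshold. The 95% confidence intervals of the single comparisons with LC are not adjusted for the number of genes tested. They ran from 0.167 to 1.87 in L60, 1.4 to 3.1 in L84 and 0.975 to 2.67 in LA. Within the arrays high in 18S, L60 1 and L84 1 exceeded LC 1 by 0.455 and 1.8, and among the others L60 2, L84 2 and the mean of LA exceeded the mean of LC 2 and LC 3 by 1.35, 2.48 and 2.05.

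Fibulin-1, encoded by Fbln1, is a glycoprotein of elastic fibres and basement membranes. It scored -1.33 and -0.151 in L60, 0.195 and 0.252 in L84, and 1.62 and 1.12 in LA, against -1.19, -0.316 and -0.203 in LC. In these means over its probe sets, both LA arrays lay highest, both L84 arrays lay above LC, and L60 overlapped LC. Fbln1 differed from LC by -0.171 ± 0.483 in L60, 0.793 ± 0.483 in L84 and 1.94 ± 0.483 in LA (adjusted p = 1, 0.599 and 0.126). LA differed from L60 by 2.11 ± 0.53 (adjusted p = 0.178). Both probe sets of Fbln1 were higher in LA, by 2.1 ± 0.431 and 1.78 ± 0.652, and they differed in size in L84, by 1.24 and 0.347. In the probe set with the smaller L84 difference, L84 1 scored -0.466, below LC 2 (0.0144) and LC 3 (-0.0903), so the groups overlapped there. Fbln1 on L84 1 exceeded LC 1 by 1.38, and on L84 2 exceeded the mean of LC 2 and LC 3 by 0.511. The same comparisons gave -0.141 and 0.109 for L60 1 and L60 2, and 1.63 for the mean of LA.

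Decorin and lumican, encoded by Dcn and Lum, are small leucine-rich proteoglycans that bind collagen fibrils and limit their width. Dcn scored -0.44 and 0.0879 in L60, -1.81 and 0.904 in L84, and 1.44 and 1.05 in LA, against -0.461, -0.406 and -0.364 in LC. Lum scored -0.365 and 0.142 in L60, -1.81 and 1.38 in L84, and 1.16 and 0.774 in LA, against -0.0679, -0.652 and -0.562 in LC. For both genes L84 1 was the lowest of the 9 arrays, L84 2 lay above all LC arrays, and both LA arrays lay above LC. The genes are neighbours on chromosome 10, Dcn at 97479500 to 97518163 and Lum at 97565501 to 97572703 of GRCm38.p6, with 47337 bases between them. Kera, the next proteoglycan gene of this cluster (97606962 to 97613688), encodes keratocan. It scored -0.173 and 0.119 in L60, -1.67 and 0.589 in L84, and 0.172 and 1.99 in LA, against 0.195, -0.797 and -0.428 in LC, so it too was lowest on L84 1.

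The difference of Dcn from LC was 0.234 ± 0.808 in L60, -0.0447 ± 0.808 in L84 and 1.66 ± 0.808 in LA (adjusted p = 1, 0.994 and 0.314). The difference of Lum was 0.316 ± 0.955 in L60, 0.214 ± 0.955 in L84 and 1.39 ± 0.955 in LA (adjusted p = 1, 0.965 and 0.439). The mean of L84 stood close to LC because its 2 arrays lay on opposite sides of it, and the 95% confidence interval for L84 was as wide as -2.12 to 2.03 for Dcn and -2.24 to 2.67 for Lum. The L84 arrays supplied 94.4% of the residual sum of squares of Dcn and 92.7% of that of Lum. Over the 16 alternatives the adjusted p of the LA difference lay between 0.0529 and 0.584 for Dcn and between 0.0929 and 0.703 for Lum, so neither passed in any. The L84 difference of Dcn was 1.31 without L84 1 and -1.4 without L84 2.

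Fibronectin, encoded by Fn1, is a plasma and matrix glycoprotein through which integrins hold cells. Its mean score was -0.0923 and -0.183 in L60, -1.56 and 1.29 in L84, and 0.596 and 0.765 in LA, against 0.365, -0.861 and -0.324 in LC. In this mean, L84 1 and L84 2 were the lowest and the highest of the 9 arrays, and both LA arrays lay above LC. The L84 arrays supplied 84% of the residual sum of squares of Fn1. The difference from LC was 0.135 ± 0.898 in L60, 0.14 ± 0.898 in L84 and 0.953 ± 0.898 in LA (adjusted p = 1, 0.976 and 0.559). Its 2 probe sets differed in sign in L60 (0.546 and -0.276) and in L84 (-0.524 and 0.804) and had the same sign in LA (1.21 and 0.7), so the mean over them hides a disagreement in L60 and L84. On the first probe set LA 1 (1.21) lay above L84 2 (0.582). On the second LC 2 (-1.1) lay below L84 1 (-0.941). There LA 1 (-0.0144) also lay below LC 1 (0.442), so LA overlapped LC.

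SPARC, encoded by Sparc and also called osteonectin, is a collagen-binding matricellular protein. Its mean score was -0.75 and 0.46 in L60, -2.1 and 0.645 in L84, and 1.01 and 1.06 in LA, against 0.123, -0.195 and -0.253 in LC. L84 1 was again the lowest array, L84 2 and both LA arrays lay above LC, and the L60 arrays fell on either side of LC. The L84 arrays supplied 82.3% of the residual sum of squares of Sparc, and the LA arrays 0.0222%. Sparc differed from LC by -0.0369 ± 0.874 in L60, -0.621 ± 0.874 in L84 and 1.14 ± 0.874 in LA (adjusted p = 1, 0.842 and 0.479). The 2 Sparc probe sets differed in sign in L60 (-0.237 and 0.163) and had the same sign in L84 (-0.551 and -0.691) and in LA (1.09 and 1.2).

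Elastin, encoded by Eln, gives skin its recoil. Its mean score was -1.02 and 1.05 in L60, -1.32 and 0.153 in L84, and 1.5 and 0.374 in LA, against -0.551, -0.343 and 0.155 in LC. The replicate arrays of L60 and of L84 lay far apart, and both LA arrays lay above LC. The difference from LC was 0.263 ± 0.828 in L60, -0.335 ± 0.828 in L84 and 1.18 ± 0.828 in LA (adjusted p = 1, 0.922 and 0.447). With 1 array left out at a time, the LA difference lay between 0.62 and 1.74. The 2 Eln probe sets differed in sign in L60 (-0.238 and 0.764) and in L84 (-0.715 and 0.0457). One differed by 1.69 ± 0.804 in LA and the other by 0.668 ± 1. In the probe set with the smaller difference LA 2 scored 0.13 and LC 3 scored 1.04, so the groups overlapped there.

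**Figure D2:**
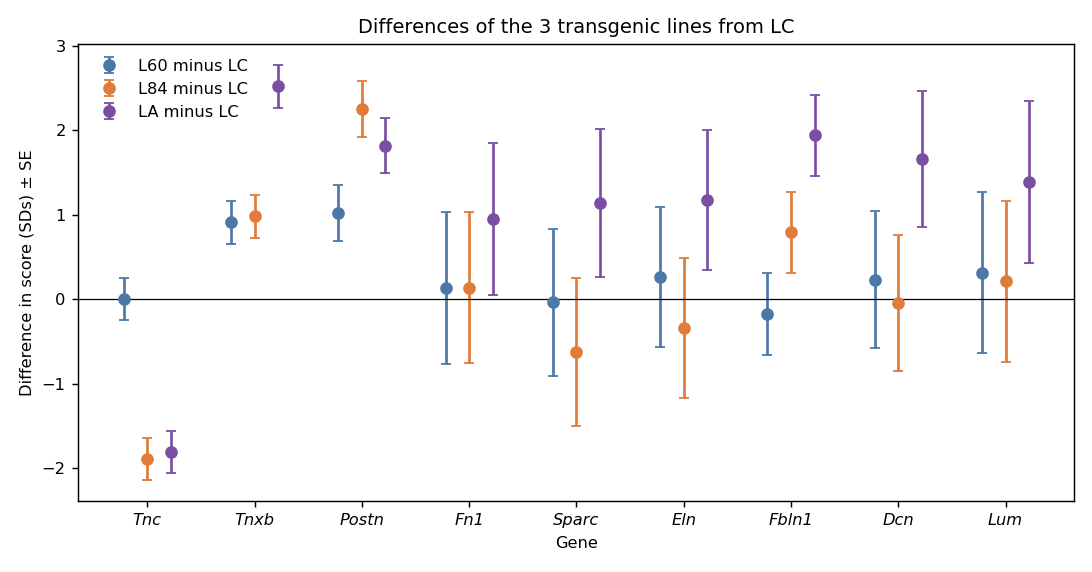
Difference in score from LC for each gene in L60, L84 and LA, in SDs over the 9 arrays, with standard errors from the fit over all arrays. Tnc is at -1.89 in L84 and -1.81 in LA, Postn at 2.25 in L84, Tnxb at 2.52 in LA, and the error bars of Fn1, Sparc, Eln, Dcn and Lum, between 0.808 and 0.955, are wider than those of Tnc, Tnxb and Postn.

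Counted over the 7 genes picked by function, 0 passed in L60, 0 in L84 and 0 in LA by limma's unmoderated test, where 0%, 0.565% and 1.8% of all 12393 genes passed. For the mean of the lines it was 0 of 7, with 0.637% of all genes. With limma's moderated variance 0 of 7 and 0 of all genes passed in each line, so the calls named here hold only for the unmoderated test. Without adjustment, 1 of the 7 in L60, 1 in L84 and 2 in LA had an unmoderated p under 0.05. Of all 12393 genes, 585, 1513 and 2576 did in L60, L84 and LA. All 7 lay above every LC array in LA, where 27.8% of all genes did, 2 of 7 in L84 (Postn and Fbln1; 13.8% of all genes) and 1 of 7 in L60 (Postn; 14.4% of all genes). The 7 genes were chosen with earlier results of these data known. These counts use means over a gene's probe sets. On part of their probe sets, Fn1 and Eln in LA and Fbln1 in L84 overlapped LC. None of the 7 lay below every LC array in any line, where 10.8%, 14.7% and 21% of all genes did in L60, L84 and LA. Their median difference from LC was 0.234 in L60, 0.14 in L84 and 1.39 in LA, and that of all genes was 0.0777, 0.00308 and 0.247. The 3 comparisons share the LC arrays. An F test over the 4 genotypes gave its smallest adjusted p among the 7 for Postn (0.148), with 0 of 7 called and 0.734% of all genes. Between lines 0 of 7 passed for LA against L60, for LA against L84 or for L84 against L60, where 0.629%, 0.0161% and 0.113% of all genes passed.

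Within L84 the 9 measured genes fell into 2 sets by how far the pools lay apart. For Fn1, Dcn, Lum, Sparc and Eln, the difference of L84 1 from L84 2 was -2.85, -2.72, -3.19, -2.75 and -1.47, and L84 1 was the lowest of the 9 arrays, as for 21.5% of all genes. For Tnc, Tnxb, Postn and Fbln1 the same differences were 0.262, -0.379, -0.00678 and -0.0569. The small value of Fbln1 averages 2 probe sets that went opposite ways. On these, L84 1 and L84 2 scored 0.856 and 0.13, and -0.466 and 0.374. L84 1 was at least 1 unit below L84 2 for 26.3% of all genes. Set against LC 1, L84 1 differed by -1.92 for Fn1, -1.35 for Dcn, -1.74 for Lum, -2.23 for Sparc and -0.765 for Eln, and L84 2 differed from the mean of LC 2 and LC 3 by 1.88, 1.29, 1.99, 0.868 and 0.247 for the same genes. In L60 the same 5 genes gave -0.458, 0.0216, -0.297, -0.872 and -0.469 for L60 1 and 0.409, 0.473, 0.749, 0.683 and 1.15 for L60 2, so L60 2 exceeded its LC arrays for all 5 and L60 1 for Dcn alone. The mean of LA exceeded the mean of LC 2 and LC 3 by 1.27 for Fn1, 1.63 for Dcn, 1.57 for Lum, 1.26 for Sparc and 1.03 for Eln. The sets were drawn up after these values were seen and carry no test. L84 1 also scored high in 18S and had wide scores overall. Whether RNA quality or the makeup of that pool has a part in the split was not tested.

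**Figure D3:**
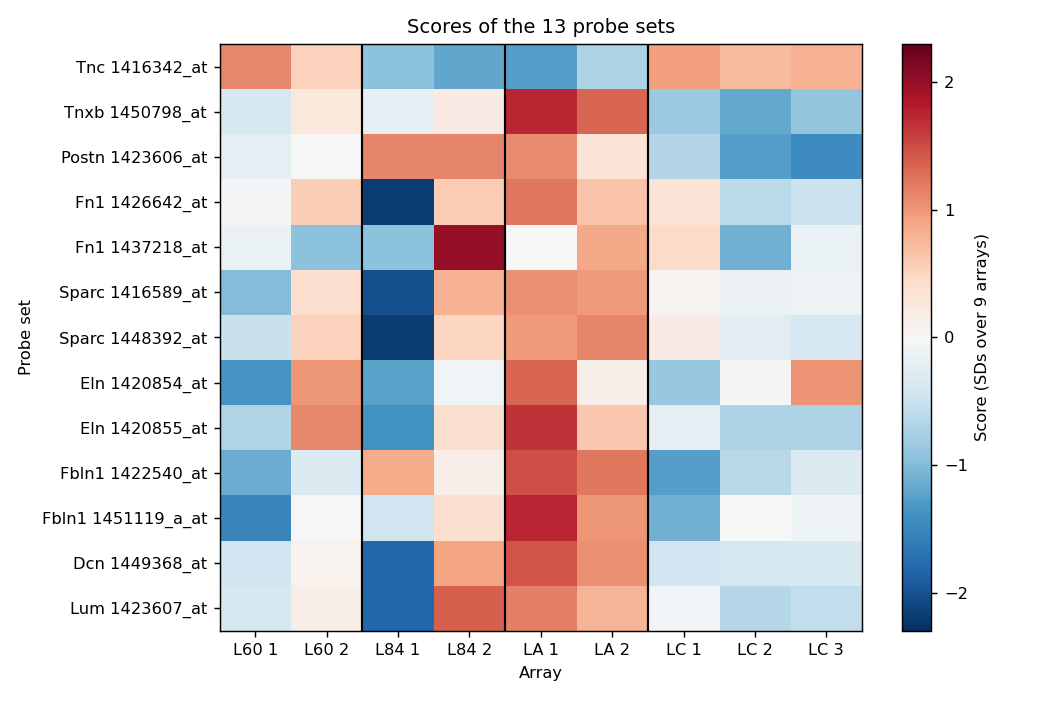
Scores of the 13 probe sets (rows) on the arrays of L60, L84, LA and LC (columns), in SDs over the 9 arrays, red for high and blue for low. Column L84 1 is at -1.81 for Dcn and Lum and at 1.12 for Postn, while both LA columns are red in every row but Tnc and 1 Fn1 probe set, which scores -0.0144 on LA 1.

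Other matrix genes were grouped by role, without the 10 members. Of all genes, 0.161% were called higher in L84 and 0.815% in LA. Among 19 other matricellular genes, Tgfbi, a secreted matrix protein that TGF-beta induces, rose in LA by 2.4 ± 0.261 (adjusted p = 0.0272). It scored -0.0846 and -0.212 in L60, 0.616 and 0.233 in L84, and 1.48 and 1.19 in LA, against -0.64, -1.24 and -1.34 in LC. Matn4, the matrix protein matrilin-4, fell in L84 by 2.04 ± 0.166 (difference -2.04, adjusted p = 0.0221) and in LA by 1.59 ± 0.166 (difference -1.59, adjusted p = 0.0246). It scored 0.696 and 1.07 in L60, -1.09 and -1.42 in L84, and -0.748 and -0.86 in LA, against 0.908, 0.649 and 0.797 in LC, the same order of groups as for Tnc. These calls were lost under 11 of 16 alternatives for Tgfbi, and under 12 and 10 of 16 for Matn4 in L84 and LA, with adjusted p up to 0.162, 0.346 and 0.235. The list had 0 genes called in L60, and medians of 0.682 in L60, 0.918 in L84 and 0.836 in LA. In L60, where none passed, Thbs2, a thrombospondin, differed most upward (1.71) and Comp, cartilage oligomeric matrix protein, most downward (-0.849).

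The remaining matrix lists had no called gene in any line. A positive difference was found for 54.8% of all genes in L60, 50.1% in L84 and 56.1% in LA. Of 14 other elastic fibre genes, 12 had one in L60, 7 in L84 and 10 in LA, with medians of 0.731, -0.0468 and 0.69. Their extremes were Fbn2, another fibrillin (1.84 in L60), Ltbp4 (-0.438 in L60), Ltbp2 (1.06 in L84), Ltbp3 (-1.43 in L84 and -1.96 in LA), all of the latent TGF-beta binding protein family, and Loxl1, a crosslinking enzyme of elastin (1.62 in LA). Of 11 other proteoglycan genes, 8, 3 and 9 had a positive difference in L60, L84 and LA, with medians of 0.317, -0.393 and 1.41. Vcan, the large proteoglycan versican, was highest in L60 (1.41) and lowest in LA (-0.851), Ogn was lowest in L60 (-0.691), Fmod and Bgn were highest and lowest in L84 (1.57 and -0.945), and Aspn was highest in LA (1.95).

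Of 12 dermal collagens, 9 had a positive difference in L60, 2 in L84 and 8 in LA, with medians of 0.498, -0.202 and 0.314. Col12a1, which decorates collagen fibrils, was lowest in every line (-0.585, -1.58 and -1.57 in L60, L84 and LA), and Col6a3, Col6a1 and Col5a2 were highest in L60, L84 and LA (1.27, 0.462 and 1.43). The collagen list averaged -0.133 and 0.848 in L60, -1.53 and 0.705 in L84, and 0.186 and 0.0324 in LA, against 0.37, -0.255 and -0.227 in LC. It shared with Dcn, Lum and Sparc a low score on L84 1, but LA lay within the range of LC, where the 7 tested members all lay above it. That difference between lists was not tested.

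Of 23 genes that process or degrade matrix, 16, 12 and 16 had a positive difference in L60, L84 and LA, with medians of 0.345, 0.0795 and 0.913. Mmp13, a collagenase, was highest in L84 and LA (1.53 and 2.17), and Fap and Plod2 were lowest there (-1.8 and -1.48), while Adamts1 and Adamts5 were the extremes in L60 (1.32 and -0.865). Of 16 matrix receptors, 11, 9 and 14 had a positive difference, with medians of 0.232, 0.162 and 0.656. The syndecans Sdc2 and Sdc1 were the extremes in LA (2.06 and -1.22), the integrin genes Itgb1 and Itga5 those in L84 (1.02 and -0.647), and Itgb3 and Sdc1 those in L60 (1.29 and -0.851). Of 11 genes of TGF-beta signalling, 7, 4 and 7 had a positive difference, with medians of 0.163, -0.0781 and 0.689. Smad7, an inhibitor within the pathway, was lowest in each line (-1.26, -1.99 and -1.78 in L60, L84 and LA), and the ligand genes Tgfb3 in L60 (1.2) and Tgfb2 in L84 and LA (0.909 and 2.21) were highest.

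**Figure D4:**
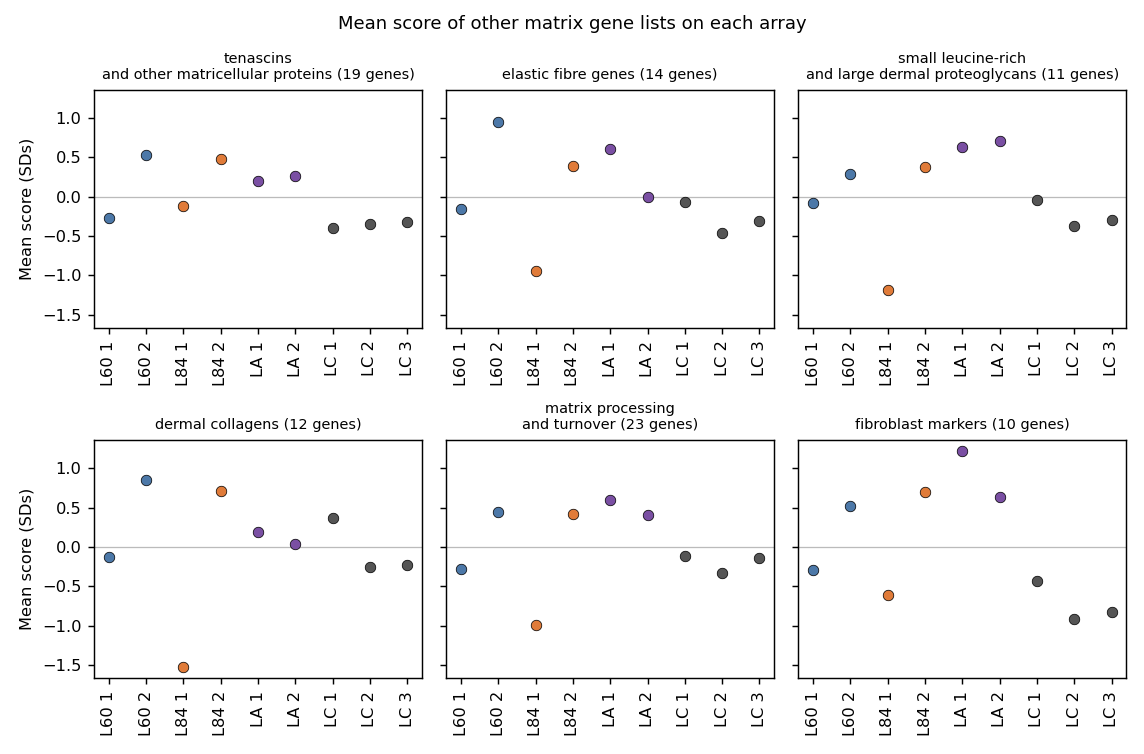
Mean score of 6 lists of other genes on each array, in SDs, for L60, L84, LA and LC. On L84 1 the collagens stand at -1.53 and the proteoglycans at -1.19, and the fibroblast markers stand at 1.22 and 0.628 in LA, against -0.912 to -0.438 in LC.

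Markers of fibroblasts, the cells that secrete this matrix, were scored on the same arrays. Over 10 fibroblast markers the mean score was -0.289 and 0.52 in L60, -0.607 and 0.701 in L84, and 1.22 and 0.628 in LA, against -0.438, -0.912 and -0.821 in LC. All 10 had a positive difference in L60 and in LA and 8 of 10 in L84, against 54.8%, 56.1% and 50.1% of all genes. Their medians were 0.817 in L60, 0.792 in L84 and 2.06 in LA. One of them, S100a4, a calcium-binding protein of motile cells, rose in L84 by 1.81 ± 0.18 (adjusted p = 0.0369) and in LA by 2.37 ± 0.18 (adjusted p = 0.0112). Of all genes, 0.161% were called higher in L84 and 0.815% in LA. No fibroblast marker passed in L60, where Twist2 was highest (1.42) and Pdgfrb lowest (0.0707). The S100a4 calls were lost under 13 of 16 alternatives in L84 and 8 of 16 in LA, with adjusted p up to 0.382 and 0.177. Pdgfra, a receptor that defines dermal fibroblasts, differed by 0.824 in L60, -0.17 in L84 and 0.423 in LA. In L84 and LA it was the lowest of the 10 markers, and S100a4 was the highest. Macrophage markers averaged -0.831 and 1.13 in L60, -1.34 and 0.604 in L84, and 1.09 and 0.53 in LA over 10 genes, against -0.535, -0.312 and -0.333 in LC, and smooth muscle markers 0.147 and 0.0855 in L60, -1.25 and -0.429 in L84, and 0.973 and 0.512 in LA over 8 genes, against 0.122, -0.141 and -0.0208 in LC. None of these macrophage or smooth muscle genes passed in any line. The part of these cell types in the member scores was not tested.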

How the data were processed

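Samples were assigned to line and replicate number from their titles. Per the submitters' processing notes the authors used RMA, with no version. What they deposited is a standardised score per probe set (over 9 arrays the row means are within 1.9e-07 of 0 and the SDs within 7.5e-08 of 1), and the scale standardised is not given in the sources used here. Of 22690 probe sets, 64 controls, 691 with several gene names and 1555 with none were dropped. GEO's platform annotation gave the names, and 20351 of 20380 probe sets matched a GRCm38.p6 record. Probe sets of a gene were averaged. Ties occur within 44.3% of probe sets, and within 3 of the members' 13, never inside a group.

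limma 3.58.1 (R 4.3.3) estimated the group means from all 9 arrays, leaving 5 residual degrees of freedom. The test was unmoderated and two-sided, because its p does not depend on a gene's scale, and calls needed an adjusted p under 0.05 (Benjamini-Hochberg, 12393 genes). The code was tested on simulated data. The members and lists were chosen with earlier results of these data known, and the motifs after the data were seen. Genes named are all members, up to 4 called genes of a list or else its extremes, and the 5 nearest patterns to Tnc and Tnxb. Kera, Pdgfra and the marker genes named were singled out after their values were seen. Alternatives left out each array, the arrays high in 18S or those of widest scores, or used a replicate block, moderated variance, single probe sets, rescaled genes, centred arrays or only the groups compared.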

Additional observations from a re-analysis of the deposited data

How the results depend on the processing

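Of 27 differences of a member from LC, 16 kept their sign under all 16 alternatives, the 9 of LA among them, and 11 turned in at least 1. The LA arrays did not overlap LC for any of these 9 genes, so leaving arrays out could not turn the LA signs. Moderated variance, rescaled genes and the fit of only the groups compared cannot turn a sign in any line. The counts include Tnc and Tnxb, which were picked for their values. Leaving out 1 array at a time moved the L60 differences of Tnc from -0.287 to 0.29, Fn1 from -0.159 to 0.455, Dcn from -0.0294 to 0.498, Eln from -0.773 to 1.3, Fbln1 from -0.761 to 0.419 and Sparc from -0.641 to 0.568. It moved the L84 differences of Fn1 from -1.29 to 1.57, Dcn from -1.4 to 1.31, Lum from -1.38 to 1.81, Eln from -1.07 to 0.4 and Sparc from -1.99 to 0.753, each range ending at the values without L84 1 and without L84 2. The Tnxb difference in L60 kept its sign but lay between 0.603 and 1.22 with 1 array left out and at 1.28 without the arrays high in 18S. Without those arrays, L60 gave -0.225 for Tnc, 0.109 for Fbln1 and 0.683 for Sparc, and L84 gave 1.29 for Dcn, 0.247 for Eln and 0.868 for Sparc. Without the arrays of widest scores, L84 gave 1.31 for Dcn, 0.4 for Eln and 0.753 for Sparc. Tnc in L60 was -0.0693 with array medians set to 0. The count of called members stayed at 0 of 7 in every comparison and alternative, except that LA against L84 gave 0 to 1 over the arrays left out: Dcn differed by 3.06 without L84 2 (adjusted p = 0.0482) and by 0.342 without L84 1 (adjusted p = 0.868), against 1.7 with both. Same-numbered arrays deviated together in 5 of 12 pairs (correlation over 0.1, range -0.0833 to 0.345). Between 2 lines of 2 arrays each, the pairs numbered 1 and 2 give the same correlation by construction, so the 12 are not independent. The highest, 0.345, was between L84 and LA. The main fit did not take the numbers to pair arrays, and a replicate block was run as an alternative. With a replicate block, Tnc and Fbln1 in L60 were -0.0142 and 0.0123, and the calls of Tgfbi in LA (2.27), Matn4 in L84 and LA (-2.03 and -1.58) and S100a4 in L84 and LA (1.73 and 2.29) were lost. Over all genes, the 70 calls of L84 and 223 of LA became 5 to 129 and 40 to 306 with 1 array left out, 3 and 1 with the replicate block and 0 and 0 with moderated variance. A filter on dim probe sets was not run, because a score holds no signal over background.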

Other observations

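The markers of other skin cells on the same arrays are given as values. Of 8 basal keratinocyte markers 7 had a positive difference in each line, against 54.8%, 50.1% and 56.1% of all genes in L60, L84 and LA. Their medians were 0.902 in L60, 1.81 in L84 and 1.46 in LA. By limma's unmoderated test 2 passed in L84 and 2 in LA (Krt5 and Krt15), where 0.161% and 0.815% of all genes were called higher. The adjusted p in L84 and LA was 0.0487 and 0.0359 for Krt5, and 0.0193 and 0.0184 for Krt15. With moderated variance these calls were lost, as 0 of all genes passed. Trp63 was negative in each line (-1.5 in LA), and Krt14 differed by 0.13 in LA. Of 9 dermal papilla markers, genes of the fibroblasts that sit at the base of the hair follicle, 0 passed, with medians of 0.0384 in L60, -0.776 in L84 and -0.185 in LA. Of these 9, 5 had a positive difference in L60, 3 in L84 and 3 in LA. Their lowest member in each line was Corin, a protease of the papilla (-0.484, -1.73 and -1.07 in L60, L84 and LA). Their highest was Sox18 in L60 (1.61) and Sox2 in L84 and LA (0.271 and 1.18). Skeletal muscle markers had medians of -0.495, 1.34 and 1.08 over 10 genes in L60, L84 and LA, adipocyte markers -0.393, -1.52 and -0.984 over 7 genes, and endothelial markers 0.379, -0.369 and 0.76 over 8 genes, with 0 passing in each.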
